A study of Rattus norvegicus with 47 samples.

Results

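The 9 genes described here are markers of the projection neurons of the striatum, chosen by symbol. Drd1, Tac1, Pdyn, Chrm4 and Isl1 mark the direct pathway, and Drd2, Penk, Adora2a and Gpr6 mark the indirect pathway. All 9 were found among the 15319 genes counted. Adolescent Sprague-Dawley rats of both sexes inhaled PCB52 (2,2′,5,5′-tetrachlorobiphenyl, a polychlorinated biphenyl) through a nose-only apparatus for 4 h a day over 28 days, or were sham-exposed. Rats were drawn into a group at random at 39 days of age (males) or 42 days (females), and what sham rats breathed is not given in the sources used here. RNA of punches from the striatum and the cerebellum was sequenced. The striatal groups were sham males (4 libraries), PCB52 males (6), sham females (6) and PCB52 females (6), and the cerebellar groups held 5, 5, 6 and 6. Libraries are named by group and by the animal number in the labels, and each is 1 animal. The labels name no other agent and no altered allele for any group. A punch holds every cell type of the tissue it took, and fewer cells of a type cannot be told apart from less RNA per cell.

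Most neurons of the striatum are GABAergic spiny projection neurons of 2 classes. Direct pathway neurons project to the output nuclei of the basal ganglia, carry the D1 dopamine receptor, which raises cyclic AMP, and release substance P and dynorphin. Indirect pathway neurons project to the external pallidum, carry the D2 dopamine receptor, which lowers cyclic AMP, and release enkephalin. Dopamine from the midbrain therefore acts on the 2 classes in opposite directions, and the balance between them is known for its part in starting and stopping movement. Drd1 and Drd2 encode these receptors. Tac1, Pdyn and Penk encode the peptide precursors of substance P, dynorphin and enkephalin. Chrm4 encodes the M4 muscarinic receptor, Adora2a an adenosine receptor and Gpr6 an orphan receptor. Isl1 encodes a transcription factor that acts while direct pathway neurons form.

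The start regions of a peptide gene and receptor genes of both classes are shown, with 4 short motifs searched on both strands. Shared control of the markers was not tested. RefSeq (GRCr8) gave a start for 7 of the 9 genes, all except Penk and Adora2a, and each window holds the 250 bases before the start. The motifs were the cyclic AMP response element TGACGTCA, its core TGACG (which the full element contains), the TATA box TATAAA and the GC box GGGCGG. Capitals mark every match. The Pdyn window lies at chr3:137366504-137366753, on the minus strand, that of Chrm4 at chr3:98348830-98349079, plus strand, that of Drd2 at chr8:58605153-58605402, plus strand, and that of Gpr6 at chr20:46075252-46075501, minus strand.
Pdyn: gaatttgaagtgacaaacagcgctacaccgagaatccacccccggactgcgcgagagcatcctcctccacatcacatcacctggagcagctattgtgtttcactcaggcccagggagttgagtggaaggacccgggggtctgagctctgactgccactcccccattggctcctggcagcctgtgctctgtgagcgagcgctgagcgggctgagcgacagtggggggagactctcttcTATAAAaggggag
Chrm4: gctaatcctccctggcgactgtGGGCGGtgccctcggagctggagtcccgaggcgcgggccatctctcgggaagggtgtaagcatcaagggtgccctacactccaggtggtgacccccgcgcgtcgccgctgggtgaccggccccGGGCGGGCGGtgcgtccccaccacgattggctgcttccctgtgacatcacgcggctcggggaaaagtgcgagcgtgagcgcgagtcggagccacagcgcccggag
Drd2: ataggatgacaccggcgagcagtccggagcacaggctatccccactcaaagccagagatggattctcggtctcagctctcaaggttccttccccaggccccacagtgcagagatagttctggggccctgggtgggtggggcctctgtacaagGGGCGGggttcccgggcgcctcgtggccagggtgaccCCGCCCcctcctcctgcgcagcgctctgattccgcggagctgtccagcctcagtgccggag
Gpr6: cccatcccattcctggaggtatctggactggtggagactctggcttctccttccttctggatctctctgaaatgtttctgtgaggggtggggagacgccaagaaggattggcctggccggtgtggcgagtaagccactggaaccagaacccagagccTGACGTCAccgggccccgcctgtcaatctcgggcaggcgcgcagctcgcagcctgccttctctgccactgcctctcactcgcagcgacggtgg
Gpr6 held the full cyclic AMP response element, whose first base lies 93 bases before the start. That element was present in 1.59% of all 33469 windows of this length, and its core in 18.2%. Pdyn held a TATA box beginning 13 bases before the start, a motif present in 12.9% of windows. Chrm4 held 3 GC boxes, 2 of them overlapping, and Drd2 held 2, 1 on each strand; 30.5% of windows held at least 1. Tac1 held 1 core element on the opposite strand, and the Drd1 and Isl1 windows held no match. The Drd1 and Tac1 windows lie at a start inside the gene's outer limits. A match is a run of letters and no more.

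Total counts ran from 5684508 to 8914523 per striatal library and from 6524400 to 15865054 per cerebellar library. All levels below are counts-per-million values (CPM), a gene's count scaled by its library's total. Several libraries stood apart. Striatal sham male 3, cerebellar sham males 9 and 11 and cerebellar sham females 8 and 10 held over 3 CPM of both Xist and Eif2s3y, transcripts of opposite sexes. Summed markers of cortical excitatory neurons, with a striatal median of 54.8 CPM, reached 511 in PCB52 female 14, 473 in PCB52 male 19 and 457 in PCB52 female 24. Olfactory bulb markers reached 341.3 CPM in sham female 12 (median 20.1), and choroid plexus markers reached 12018 CPM in PCB52 female 20 (median 48.1). Leaving out either kind of library changed no call on a marker in any comparison. The tissue labels held for the 9 markers: every one was higher in each striatal library than in any cerebellar library.

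In the striatum, none of the 9 markers differed between PCB52 and sham past the threshold, in males or in females. In males every marker lay close to the sham level. In females the log2 fold changes of all 9 were negative, from -0.37 (Gpr6) to -0.12 (Chrm4), and for 8 of the 9 the lowest values of the tissue were those of PCB52 females 14 and 24. Without those libraries the differences in females ran from -0.22 (Isl1) to 0.07 (Chrm4), and 3 of the 9 (Chrm4, Drd2 and Penk) changed direction.

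Drd1, the D1 receptor, measured 304, 340.99, 463 and 353 CPM in sham males 1, 3, 9 and 11. PCB52 males ran from 311 to 414 CPM with a median of 355, and sham females from 306 to 439.8 with a median of 375. PCB52 females ran from 202 to 387 CPM with a median of 337.8. Females 24 and 14, at 202 and 224 CPM, were the lowest of all 22 striatal libraries, while the other PCB52 females, from 323 to 387, lay inside the sham range. The group means were 312 ± 81.1 CPM in PCB52 females (SD, n = 6) and 376 ± 52.6 in sham females (SD, n = 6).

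Tac1, the substance P precursor, measured 219.8, 293, 392 and 284 CPM in sham males 1, 3, 9 and 11, and from 253 to 386 (median 309) in PCB52 males. Sham females ran from 261 to 376 CPM (median 333.6), and PCB52 females from 140.2 to 405 (median 271). PCB52 females held both the lowest and the highest Tac1 values of the tissue, in females 24 and 18, so that their SD of 101.5 CPM was more than that of any other group. The groups overlapped throughout.

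Pdyn, the dynorphin precursor, measured 202, 268, 252 and 242 CPM in sham males 1, 3, 9 and 11. It ran from 232 to 270.4 CPM (median 251) in PCB52 males, from 225 to 307.8 (median 280.5) in sham females and from 157 to 281 (median 253) in PCB52 females. Female 14, at 200.4 CPM, lay beside sham male 1 at 202, and female 24, at 157 CPM, lay well below both. PCB52 males were the tightest group, with an SD of 14.01 CPM.

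Chrm4, the M4 receptor through which acetylcholine opposes D1 signalling, varied least among the direct markers outside those females. Sham males 1, 3 and 9 measured 106, 110.1 and 108 CPM and sham male 11 measured 136. PCB52 males ran from 105 to 119.7 CPM (median 109) and sham females from 96.6 to 128 (median 110.1). PCB52 females ran from 75.8 to 128 CPM with a median of 113, and females 24 and 14, at 75.8 and 79.9, were again the lowest in the tissue.

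Isl1, the transcription factor, had the lowest counts of the 9 genes, at 4.93 to 11.6 CPM over all striatal libraries. Sham males 1, 3, 9 and 11 measured 6.62, 8.35, 9.07 and 7.29 CPM, and PCB52 males ran from 6.73 to 10.6 (median 7.49). Sham females ran from 5.84 to 11.6 CPM (median 9.10) and PCB52 females from 4.93 to 8.93 (median 7.53). It was the 1 marker for which female 24 was not low: it measured 8.36 CPM, above 12 of the 20 libraries outside this pair, while female 14 was the lowest at 4.93. As percents of the median of those 20, Isl1 was 63.1 in female 14 and 107 in female 24. Among genes of acetylcholine interneurons, Chat was 50.2 and 101.5, Slc5a7 75.1 and 123.7, and Slc18a3 51.1 and 76.4. Which cells of the punch gave the Isl1 reads was not tested.

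**Figure D1:**
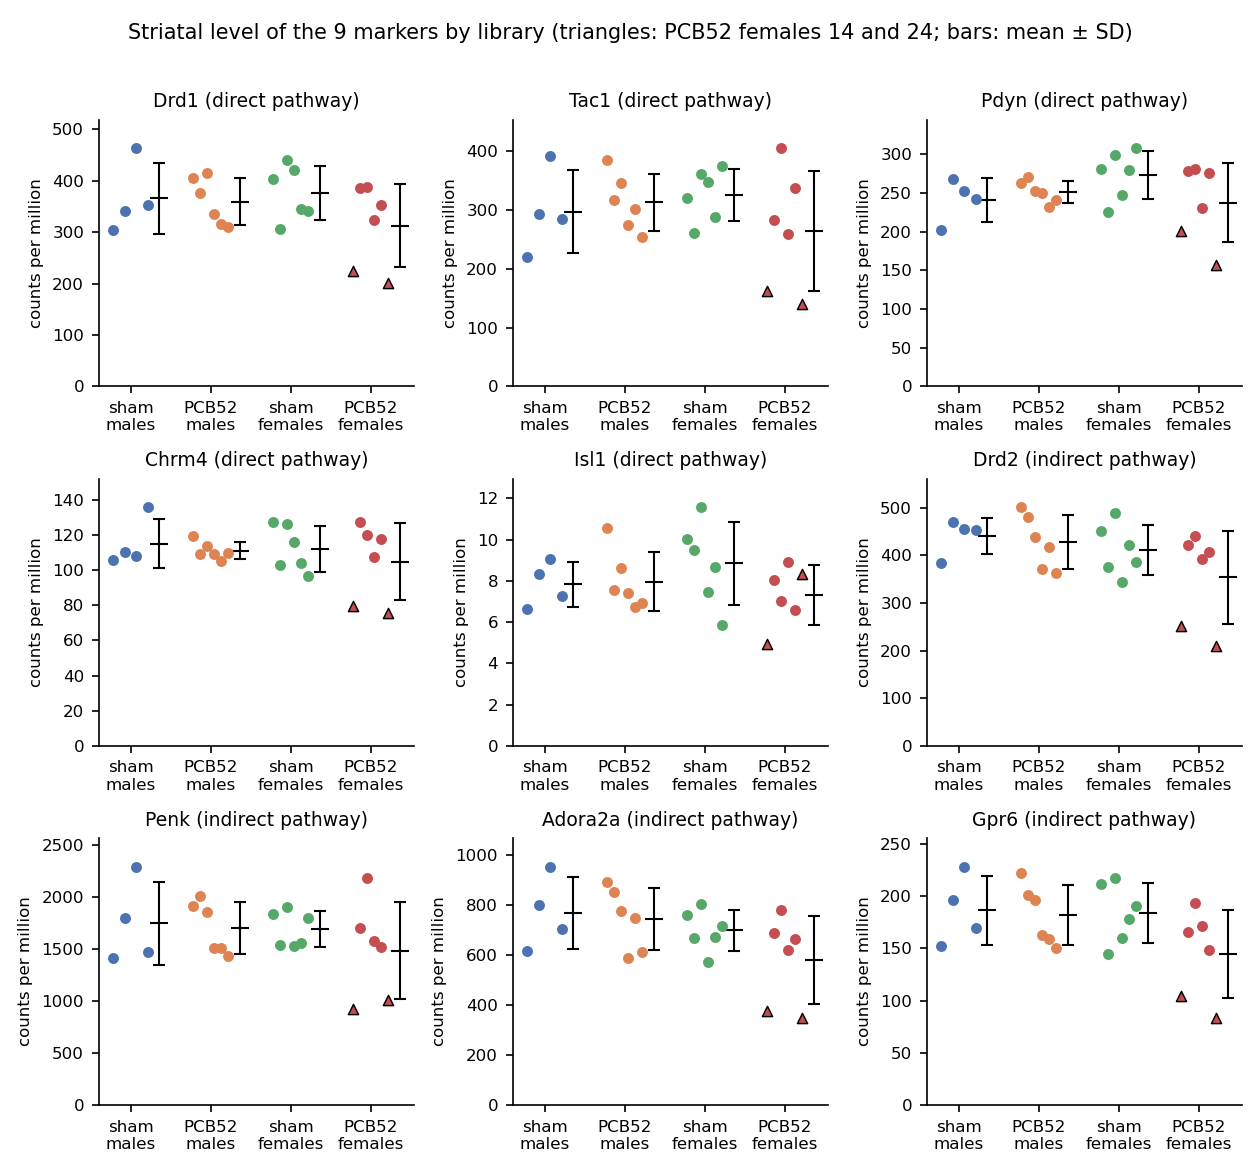
Striatal level of each marker in CPM (y axis, from 0) by group (x axis). Points are libraries, triangles are PCB52 females 14 and 24, and bars are the group mean ± SD (n = 4 sham males, 6 in each other group). The triangles lie below all other points for every marker except Isl1, where female 24 measured 8.36 CPM.

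Among the indirect pathway markers, Drd2, the D2 receptor, measured 384, 469.9, 456 and 453 CPM in sham males 1, 3, 9 and 11. PCB52 males ran from 363 to 501 CPM (median 429), sham females from 345 to 489 (median 404) and PCB52 females from 209 to 440.0 (median 401). Females 24 and 14, at 209 and 251 CPM, lay below all 20 others, whose lowest value was 345. The other PCB52 females, from 393 to 440.0, lay inside the sham female range.

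Penk, the enkephalin precursor, measured 1421, 1804, 2295 and 1474 CPM in sham males 1, 3, 9 and 11. It ran from 1439 to 2009 CPM (median 1682) in PCB52 males, from 1534 to 1907 (median 1678) in sham females and from 928 to 2182 (median 1552) in PCB52 females. Females 14 and 24, at 928 and 1007 CPM, were the lowest, and female 18, at 2182, was the highest of any female. Sham females had the narrowest spread, with an SD of 172 CPM against 465 in PCB52 females.

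Adora2a, the adenosine receptor that raises cyclic AMP in indirect pathway neurons, measured 617, 803, 955 and 703 CPM in sham males 1, 3, 9 and 11. PCB52 males ran from 590.2 to 895 CPM (median 763), sham females from 574 to 805 (median 695) and PCB52 females from 349.5 to 782 (median 643). Females 24 and 14, at 349.5 and 377 CPM, stood below the rest, of which the lowest was 574. Of the 4 remaining PCB52 females none passed 782 CPM, inside the range of sham females.

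Gpr6, the orphan receptor enriched in indirect pathway neurons, measured 153, 197, 228 and 169.5 CPM in sham males 1, 3, 9 and 11. PCB52 males ran from 150.3 to 223 CPM (median 179.6), sham females from 145 to 217 (median 184) and PCB52 females from 83.2 to 193 (median 157). Female 24 measured 83.2 CPM and female 14 measured 104, and the next library, sham female 4, measured 145.

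The order of the 4 group means was read for each gene. PCB52 females came last for all 9 markers, at 75.5% (Adora2a) to 91.2% (Chrm4) of the highest group mean. Their means and SDs include females 14 and 24. The other 4 averaged 118 CPM of Chrm4, 416 of Drd2 and 1747 of Penk, against 112, 412 and 1696 in sham females. Without that pair these markers would not come last. For the remaining markers the other 4 averaged below sham females. Of these, Drd1, Tac1 and Pdyn would not come last either, since the other 4 averaged above PCB52 males. Isl1, Adora2a and Gpr6 would still come last. Sham females came first for Drd1, Tac1, Pdyn and Isl1, and sham males for Chrm4, Drd2, Penk, Adora2a and Gpr6. Every pair of neighbouring means in these orders, the last place included, differed by less than the larger SD of the pair, so no neighbours differed beyond their spread.

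The test of PCB52 against sham was edgeR's quasi-likelihood F-test over 12142 genes, with Benjamini-Hochberg adjustment and a threshold of 0.05. In males 0 of 9 markers passed, and 0% of all genes tested did. The markers' log2 fold changes ran from -0.05 (Chrm4) to 0.08 (Tac1), and edgeR gave each an adjusted p of 1.00. In females 0 of 9 passed, and again 0% of all genes did. At an unadjusted p under 0.05 there were 109 genes in males and 1633 in females, and DESeq2 passed 1 and 23 genes, none of them a marker.

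Gpr6 had the lowest p of the markers in females, at -0.37 ± 0.17 (log2 fold change ± SE, unadjusted p = 0.0426, edgeR adjusted p = 0.362), lower in 5 of 6 PCB52 females than the sham mean. Tac1 stood at -0.32 ± 0.21 (edgeR adjusted p = 0.449), Isl1 at -0.30 ± 0.17 and Drd1 at -0.29 ± 0.15 (edgeR adjusted p = 0.392). Adora2a stood at -0.29 ± 0.18, Drd2 at -0.24 ± 0.16, Pdyn at -0.23 ± 0.13, Penk at -0.21 ± 0.18 and Chrm4 at -0.12 ± 0.12. The median over the 5 direct markers was -0.29 and over the 4 indirect markers -0.27, beside -0.002 over all genes tested. The difference between the classes was not tested.

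With PCB52 females 14 and 24 left out, a choice made after seeing the data, Gpr6 stood at -0.12 and Drd1 at -0.06. Drd2 stood at 0.01, Penk at 0.04 and Chrm4 at 0.07. Isl1 moved least, from -0.30 to -0.22 (edgeR adjusted p = 0.691). Gpr6 and the other markers lay at an edgeR adjusted p of 0.691 to 0.989 in that fit. With all libraries high in markers of another tissue left out, Isl1 stood at -0.39 and the rest between -0.10 (Gpr6) and 0.13 (Tac1), with edgeR adjusted p-values from 0.855 to 0.999.

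**Figure D2:**
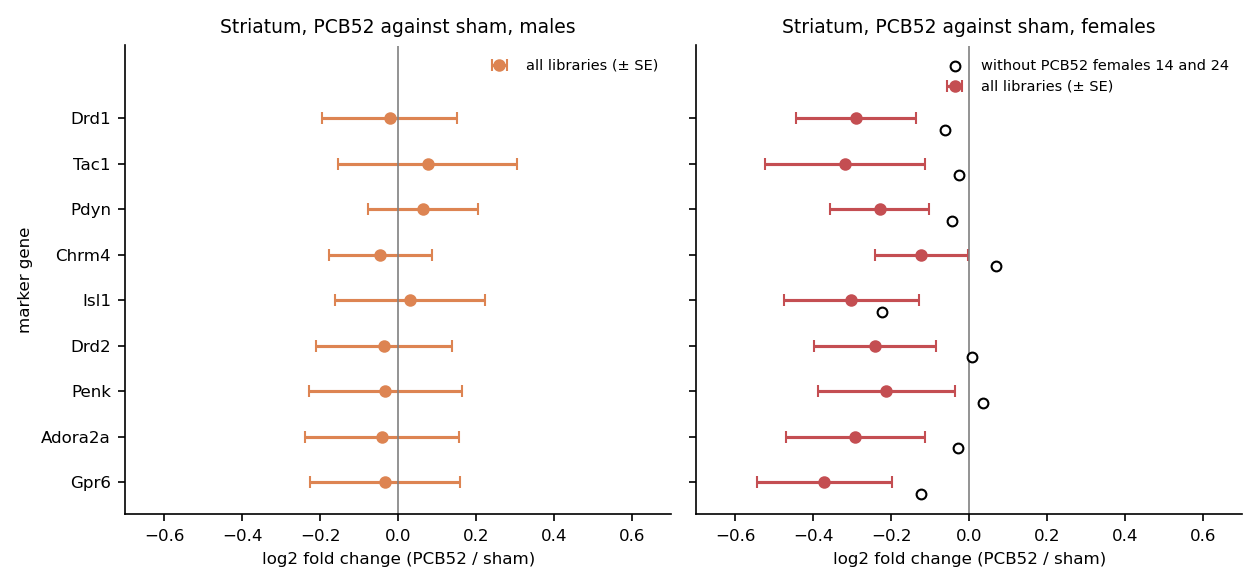
Log2 fold change of PCB52 over sham in striatum (x axis) for each marker (y axis), in males (left) and females (right). Filled points with bars are the edgeR estimate ± SE from all libraries, and open points are the estimate without PCB52 females 14 and 24. All 9 filled points lie below 0 in females, and 3 of the 9 open points (Chrm4, Drd2 and Penk) lie above it.

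The difference between the sexes in the PCB52 effect was itself tested. None of the 9 markers passed, and 0% of all genes did. The female minus male effect ran from -0.40 ± 0.31 (Tac1) to -0.08 ± 0.18 (Chrm4), with edgeR adjusted p-values from 0.914 to 0.952. Between sham females and sham males 0 of 9 markers passed, where 0.0329% of all genes did. Pdyn had the largest difference, at 0.19 ± 0.14, and Adora2a the most negative, at -0.13 ± 0.20 (edgeR adjusted p = 1.00 for both). Between PCB52 females and PCB52 males 0 of 9 passed, where 0.0412% of all genes did. Adora2a stood at -0.38 ± 0.18 (unadjusted p = 0.0428, edgeR adjusted p = 0.948) and at -0.12 without females 14 and 24. Averaged over the sexes, 0 of 9 passed for PCB52 against sham, with 0% of all genes, and the markers ran from -0.20 (Gpr6) to -0.08 (Pdyn).

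PCB52 females 14 and 24 were described against the median of the other 20 striatal libraries. Female 14 held 52.4% (Tac1) to 77.8% (Pdyn) of that median in the 9 markers, and female 24 held 45.3% (Tac1) to 69.0% (Chrm4) in all but Isl1, at 107%. Both lay below all 20 others for 8 of the 9 markers. Of the 10501 genes with a mean of at least 5 CPM, 2.14% lay below all 20 in both animals, and 2.61% lay above. Since those libraries were picked for this, the counts are descriptions.

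Most genes that both classes of projection neuron share were low along with the markers in these animals. Of 17 such genes, 12 lay below all 20 other libraries in both. Among the rest, Foxp2 held 92.9% of the median of those 20 in female 14 and 58.1% in female 24, and Bcl11b 84.5% and 67.8%. Ppp1r1b, the dopamine-regulated phosphatase inhibitor DARPP-32, measured 2182 CPM in female 14 and 2111 in female 24, against 3523 to 5856 elsewhere. Rgs9, which shortens dopamine receptor signalling, measured 424 and 416 CPM against 561 to 965. The 17 genes summed to 12699 and 11423 CPM, 59.1% and 53.2% of the median of the others.

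Further genes of the pathways were less uniform in these animals. Of 4 further direct pathway genes, Slc35d3 lay below the others in both, at 44.3 and 45.7 CPM against 50.4 to 77.7. The 4 summed to 171 CPM in female 14, near the median of the others, and to 142.2 in female 24, below all 20 (143.2 to 184). Of 8 further indirect pathway genes, none lay below the others in both. They summed to 344 CPM in female 14 and to 247 in female 24, which was 76.2% of the median and above 1 of the 20. Sp9, a transcription factor of indirect pathway neurons, measured 58.6 CPM in female 14 and 26.6 in female 24, against 28.2 to 63.7 elsewhere. Of 8 interneuron genes none lay outside the others in both, and Chat, the acetylcholine-synthesizing enzyme, measured 10.9 CPM in female 14 and 22.1 in female 24 against 14.2 to 29.2.

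Markers of other tissue moved with these values. Of 7 cortical excitatory genes measured, summing to 511 CPM in female 14 and 457 in female 24, Slc17a7, the vesicular glutamate transporter of cortical neurons, gave 347.4 and 371 CPM. The cortical list summed to 30.2 to 46.6 CPM in sham males, 26.4 to 303 in sham females, 24.4 to 473 in PCB52 males and 46.5 to 511 in PCB52 females. The 8 thalamic, septal and hypothalamic genes summed to 65.4 CPM in female 14 and 45.6 in female 24, against 12.4 to 24.1 in the other 20, and Trpc4 alone gave 44.5 CPM in female 14. Oligodendrocyte genes summed to 16280 and 29616 CPM, against 8918 to 31984 elsewhere.

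Cortical markers did not move with the projection neuron markers in every library. PCB52 male 19, with 473 CPM of cortical markers, measured 334.2 CPM of Drd1, 371 of Drd2 and 1509 of Penk, inside the range of the other PCB52 males for all 3. Its Adora2a, at 590.2 CPM, was the lowest of the PCB52 males and above that of sham female 8. The part of other tissue in the low values of females 14 and 24 was not tested.

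**Figure D3:**
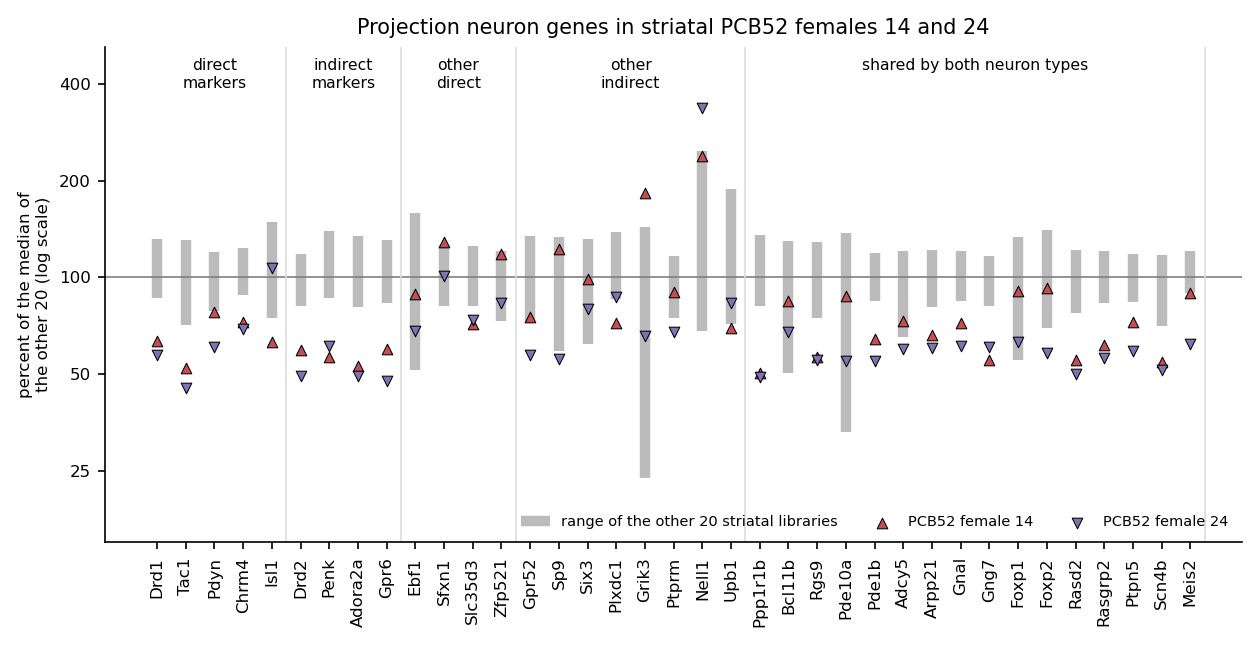
Level of each gene in PCB52 females 14 and 24 (triangles) as a percent of the median of the other 20 striatal libraries (y axis, log scale), with the range of those 20 as grey bars. Genes along the x axis are the 9 markers, other genes of each pathway and genes both classes share, of which 1 is not drawn. Both triangles lie below the bar for 8 of 9 markers.

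The markers were then set against the mean of the 17 shared genes in the same library, on the log2 CPM scale. On this scale Drd1 in female 24 differed from the median of the other 20 by -0.003. Chrm4 in female 24 lay 0.22 above it, higher than all 20. Isl1 in female 24 lay 0.89 above that median, also higher than all 20, and which cells gave its reads was not tested. Adora2a differed by -0.40 in female 14 and by -0.24 in female 24, and Tac1 by -0.36 and -0.31. Drd2 differed by -0.23 in both, Gpr6 by -0.19 and -0.25, and Penk by -0.29 and 0.09. All 20 lay above Adora2a and Penk in female 14 and above Gpr6 in female 24. Of the 20, 19 lay above Tac1 and Drd2 in both animals, Adora2a in female 24 and Gpr6 in female 14. Pdyn lay 0.19 and 0.09 above the median of the 20. In female 14, Drd1 differed by -0.12, with 17 of the 20 above it, and Chrm4 by 0.03. Relative to shared projection neuron genes, Pdyn and Chrm4 were thus above the median in both animals, Tac1, Drd2, Adora2a, Gpr6 and Drd1 were below it in both (Drd1 in female 24 by the -0.003 above), and Isl1 and Penk were below it in female 14 and above it in female 24.

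The balance of the pathways was measured as the mean log2 CPM of the 5 direct markers minus that of the 4 indirect markers in each library. Only differences between libraries are read from it, since levels of different genes were not scaled by length. It was -2.27 ± 0.09 in sham males (SD, n = 4), -2.21 ± 0.11 in PCB52 males (SD, n = 6), -2.10 ± 0.11 in sham females (SD, n = 6) and -2.05 ± 0.14 in PCB52 females (SD, n = 6). Sham males ran from -2.34 to -2.14, PCB52 males from -2.38 to -2.08, sham females from -2.23 to -1.89 and PCB52 females from -2.23 to -1.84. The groups overlapped, and within a sex the PCB52 and sham means lay within 1 SD of each other. Between the sexes the female mean was above the male mean by more than either SD, in sham and in PCB52 rats. The PCB52 female mean includes females 14 and 24, and the difference between the sexes was not tested. Females 14 and 24 were far below the rest in both pathway means, and their balance, at -1.97 and -1.84, was the second and the highest of the PCB52 females. The order depends on the markers counted: without Isl1 and Gpr6 female 14 came first (-1.52), female 22 second (-1.58) and female 24 after them (-1.63).

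The ratio of Drd1 to Drd2 counts was 0.828 ± 0.128 in sham males (SD, n = 4), 0.841 ± 0.072 in PCB52 males (SD, n = 6), 0.921 ± 0.150 in sham females (SD, n = 6) and 0.889 ± 0.048 in PCB52 females (SD, n = 6). The highest ratio, 1.22, was in sham female 8, where Drd2 was the lowest of the sham females at 345 CPM and Drd1 measured 420.4. The lowest, 0.726, was in sham male 3, a library with transcripts of both sexes.

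**Figure D4:**
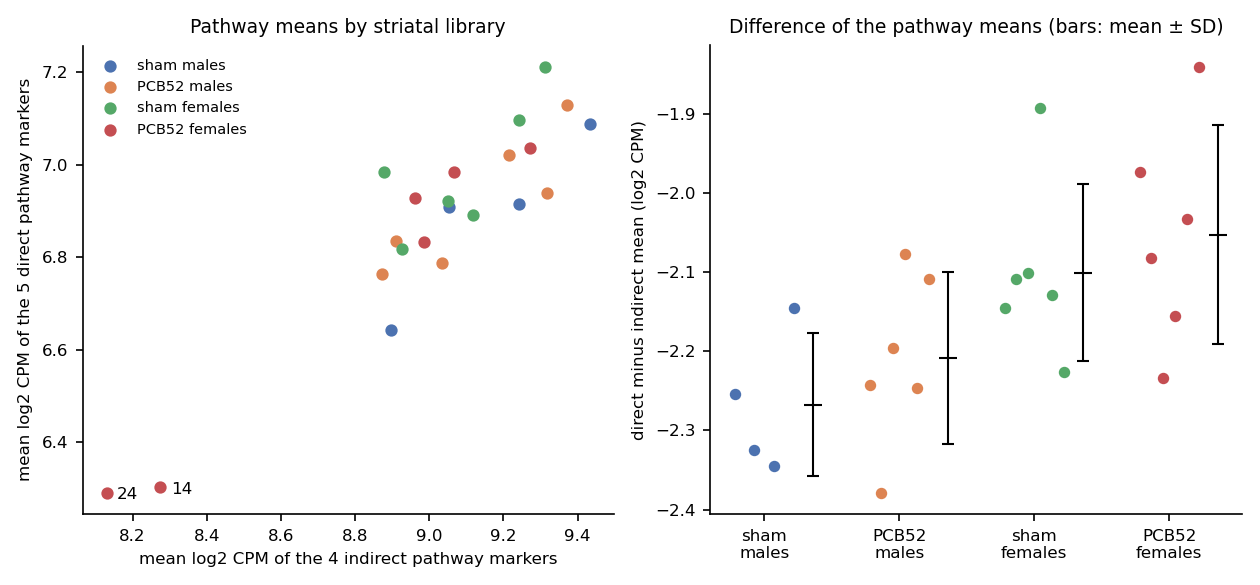
Left, mean log2 CPM of the 5 direct markers (y axis) against that of the 4 indirect markers (x axis), 1 point per striatal library. Right, their difference by group, with the mean ± SD (n = 4 sham males, 6 in each other group). Females 14 and 24 lie at the lower left, and the differences of the 4 groups overlap.

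Other genes of the pathway were taken from set lists, and none passed the test in either sex, with the same 0% of all genes. In females 16 of the 17 shared genes were lower with PCB52, with a median of -0.21 beside -0.002 for all genes. Meis2, a transcription factor, stood at -0.22 ± 0.10 (unadjusted p = 0.0442, edgeR adjusted p = 0.366), and Arpp21, a cyclic AMP-regulated phosphoprotein, at -0.26 ± 0.14. In males 10 of the 17 were lower, with a median of -0.01. In females 3 of 4 further direct genes and 2 of 8 further indirect genes were lower, with medians of -0.09 and 0.09. Ebf1, a transcription factor of direct pathway neurons, stood at -0.28 ± 0.18, and Nell1 at 0.56 ± 0.28 (edgeR adjusted p = 0.375). These values include PCB52 females 14 and 24, in both of which 12 of the 17 shared genes lay below all other striatal libraries. Nell1 measured 28.9 and 40.7 CPM in them, against a median of 12.1 in the other 20. None of the lists here or below was refitted without that pair.

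Of 5 receptors of the marker peptides, 4 were higher in females and none passed, with a median of 0.16. Oprk1, the kappa receptor for dynorphin, stood at -0.31 ± 0.19 in females and at 0.30 ± 0.22 in males. Tacr3, a tachykinin receptor, stood at 0.87 ± 0.37 in males (unadjusted p = 0.0257, edgeR adjusted p = 1.00) at levels of 0.732 to 4.73 CPM over the striatal libraries. Of 9 relatives of the marker receptors that could be tested, 5 were higher in females, among them Drd5, the second D1-class receptor, at 0.59 ± 0.39. Of 5 genes that process and store the peptides, 4 were lower in females. Pcsk2, the protease that cuts dynorphin and enkephalin precursors, stood at -0.28 ± 0.10 (unadjusted p = 0.0143, edgeR adjusted p = 0.323).

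RNA for ribosomal proteins was also followed. All 14 of 14 listed genes were lower in PCB52 females, with a median of -0.32, and 0 passed. Library by library this did not follow the markers: the sum was 4567 CPM in female 14, 72.05% of the median of the other 20, and 6448 in female 24, 101.7% of it, while sham female 12 held the highest sum of the tissue, at 11113.

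Across the 22 striatal libraries the indirect markers varied closely together. Pearson's r of log2 CPM minus the group mean ran from 0.85 to 0.95 over the 6 pairs of indirect markers, with a median of 0.93. Over the 10 pairs of direct markers it ran from 0.09 to 0.91, with a median of 0.71, and over the 20 pairs across classes from 0.41 to 0.90, with a median of 0.83. Without females 14 and 24 (20 libraries) the medians were 0.86, 0.45 and 0.62. Isl1 gave the lowest pair, with Pdyn. These values share library, depth and dissection, and are descriptions.

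For each marker the most alike genes were sought by the same r among 10446 genes with a mean of at least 5 CPM, over all 22 libraries and over the 20 without females 14 and 24. For Adora2a, Pdyn and Penk the most alike gene was the same in both. Adora2a was most like Ppp1r1b (r = 0.99 over 22 libraries, 0.97 over 20), Pdyn most like Kctd1 (0.97 and 0.91) and Penk most like the acid-sensing channel gene Asic4 (0.95 and 0.92). Gpr6 had Cap1 among its 3 most alike over 22 libraries (0.94) and as the most alike over 20 (0.91).

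For the other 5 markers the most alike gene changed when females 14 and 24 were left out. Drd1 was most like Gnal, the G protein subunit that couples the D1 and Adora2a receptors to adenylyl cyclase, over 22 libraries (0.96), and most like Ttc19 over 20 (0.93), with Gnal second (0.92). Tac1 was most like Rxrg, a retinoid receptor, over 22 (0.96), and most like the calmodulin gene Calm2 over 20 (0.97). Drd2 was most like Pde1b, a phosphodiesterase, over 22 (0.96), and most like Ptpn7 over 20 (0.90). Chrm4 was most like the sodium channel subunit gene Scn4b over 22 (0.90), and most like Tef over 20 (0.84). Isl1, at the lowest counts, was most like Cab39 over 22 (0.70), and most like Pacsin2 over 20 (0.81).

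In the cerebellum, a tissue without these projection neurons, the markers were low and 4 of them could not be tested. Penk, which cerebellar Golgi cells are known to express, had the most reads of the 9. It ran from 68.3 to 128 CPM, with 6929 counts over the sham libraries. Sham males 1, 3, 7, 9 and 11 measured 68.3, 110.0, 94.2, 85.6 and 75.1 CPM of Penk, and PCB52 males 13, 15, 19, 21 and 23 measured 74.1, 104, 104, 86.0 and 96.4. Sham females ran from 78.1 to 99.2 CPM (median 85.2) and PCB52 females from 69.4 to 128 (median 82.8). The groups overlapped fully.

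Adora2a was detected in all 22 cerebellar libraries, at 4.75 to 12.9 CPM. Sham males 1, 3, 7, 9 and 11 measured 6.98, 8.88, 8.18, 10.8 and 7.30 CPM, and PCB52 males 13, 15, 19, 21 and 23 measured 6.00, 12.9, 12.0, 11.8 and 9.16. Both dopamine receptors and Tac1 were low but present. Drd1 ran from 0.413 to 9.70 CPM, Drd2 from 1.95 to 9.57 and Tac1 from 0 to 9.46.

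PCB52 female 16 held the highest Tac1 (9.46 CPM, 82 counts), the highest Drd2 (9.57 CPM) and the highest Penk (128 CPM) of the cerebellar libraries. The next values were 4.97 CPM of Tac1 in sham male 3, 4.13 of Drd2 in PCB52 male 19 and 110.0 of Penk in sham male 3. The same library held the highest Slc17a6, a glutamate transporter of subcortical neurons, at 33.8 CPM, and Tcf7l2, a transcription factor of the thalamus, at 36.7 CPM, against 24.8 and 8.04 in the next highest libraries. The 8 thalamic, septal and hypothalamic genes summed to 72.8 CPM there and to no more than 33.9 elsewhere. Their part in the Tac1 and Drd2 values was not tested.

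Pdyn, Chrm4 and Gpr6 were near the limit of detection, and PCB52 female 24 held the highest value of each: 4.29 CPM of Pdyn (28 counts), 2.45 of Chrm4 (16 counts) and 1.38 of Gpr6 (9 counts). The next highest were 1.58, 0.920 and 0.556 CPM. Isl1 had 2 counts in sham male 3 and none in the other 21 libraries, which over the PCB52 libraries allows up to 0.03001 CPM (3 counts over the group, counting error only).

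**Figure D5:**
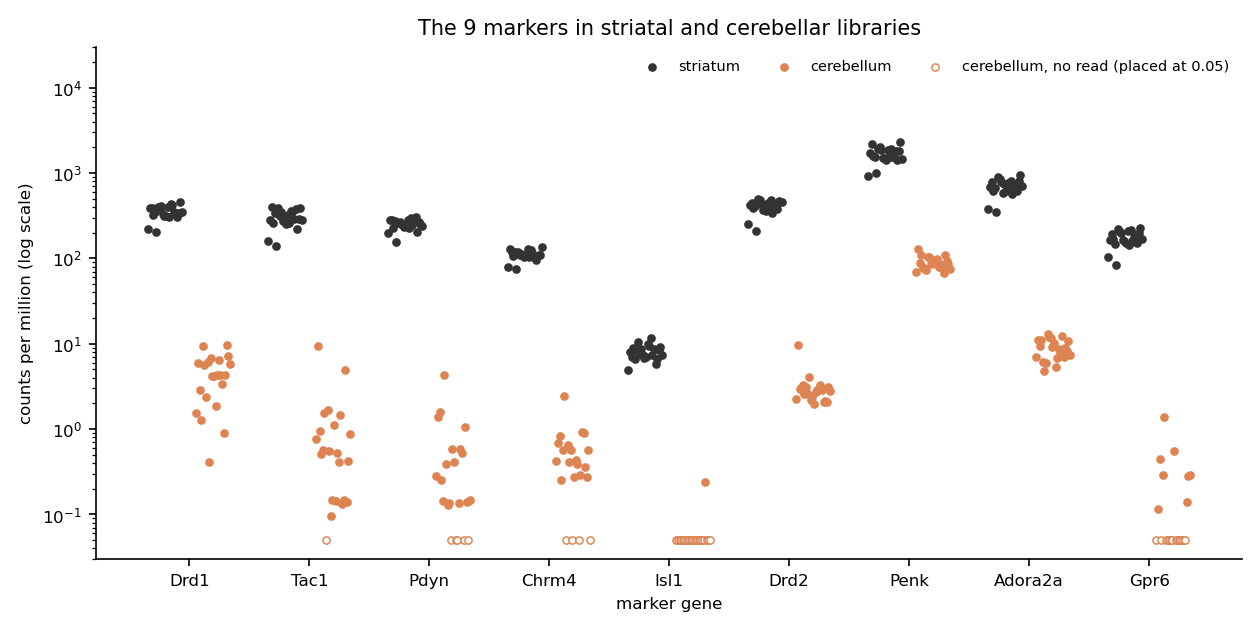
Level of each marker (x axis) in CPM (y axis, log scale) in 22 striatal and 22 cerebellar libraries, 1 point each. Open points are cerebellar libraries with no read, placed at 0.05. The regions do not overlap for any marker, and Penk is the marker with the smallest gap.

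In the cerebellum 5 of the 9 markers had enough reads for the test (Drd1, Tac1, Drd2, Penk and Adora2a), over 11690 genes. None of the 5 passed for PCB52 against sham in either sex or averaged over the sexes, nor for the difference between sexes, and 0% of all genes passed in each. DESeq2 passed 1, 9, 19 and 4 genes there, none a marker, and 1673, 369, 1727 and 254 genes had an unadjusted p under 0.05. Averaged over the sexes, DESeq2 gave an adjusted p to Penk alone of the 5 markers (DESeq2 adjusted p = 0.389). Drd1, Tac1, Drd2 and Adora2a could therefore not pass DESeq2 in that comparison. Tac1 stood at 1.88 ± 0.94 in females (unadjusted p = 0.0594, edgeR adjusted p = 1.00) and at -1.42 ± 1.115 in males (edgeR adjusted p = 0.387). Without PCB52 female 16, Tac1 no longer had enough reads for the test. Drd2 stood at 0.52 ± 0.30 in females and at 0.03 without that library. Penk stood at 0.16 ± 0.17 in males and 0.12 ± 0.16 in females, and Adora2a at 0.35 ± 0.26 and -0.02 ± 0.24. Between the sexes 0 of 5 passed in sham or in PCB52 rats, with 0% of all genes in both. Cerebellar sham males 9 and 11 and sham females 8 and 10 held transcripts of both sexes. With such libraries left out, 4 genes passed in sham and 5 in PCB52 rats, of 11850, and 0 markers. With all libraries the test passed none of these genes, so its 0 says little of the markers.

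Between the regions all 9 markers passed in sham and in PCB52 rats, where 69.8% and 76.9% of 12446 genes did. The markers are defined by the striatum, and several entered the test only through it, so this is a check of the labels. The ratio of mean CPM in sham rats was 19.9 for Penk, 77.9 for Drd1, 85.7 for Adora2a, 161 for Drd2, 283 for Chrm4, 335 for Tac1, 951 for Pdyn and 1602 for Gpr6. For Isl1 in PCB52 rats the striatal mean was at least 255-fold higher, against the limit of 3 counts over the group. In PCB52 rats the ratios were 17.4 for Penk, 79.1 for Drd1, 72.1 for Adora2a, 113 for Drd2, 173 for Chrm4, 195 for Tac1, 293 for Pdyn and 808 for Gpr6. Single cerebellar libraries set several of these, as seen when each was left out in turn, a choice made after seeing the data. The Tac1 ratio became 586 without sham male 3 and 423 without PCB52 female 16. The Gpr6 ratio became 2591 without sham female 2 and 1935 without PCB52 female 24, and the Pdyn ratio in PCB52 rats became 499.7 without PCB52 female 24. No other cerebellar library moved a ratio by over 1.5 times.

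Whether the regions differed by another amount in PCB52 rats was tested directly. None of the 9 markers passed and 0% of all genes did. Drd2 had the lowest p, with a PCB52 minus sham difference of -0.55 ± 0.26 on the log2 scale (unadjusted p = 0.0370, edgeR adjusted p = 0.268). Without cerebellar PCB52 female 16 it was -0.30 (edgeR adjusted p = 0.422). Penk stood at -0.28 ± 0.19 and Adora2a at -0.35 ± 0.23. Pdyn stood at -0.99 ± 0.67 (edgeR adjusted p = 0.355), Chrm4 at -0.51 ± 0.45, Tac1 at -0.33 ± 0.72 and Gpr6 at 0.56 ± 0.59. The Gpr6 difference is opposite in sign to the fall in its ratio of mean CPM, from 1602 in sham to 808 in PCB52 rats. It averages the sexes on the log scale, and cerebellar PCB52 males held no Gpr6 read in any of 5 libraries. No direction is read from either value for Gpr6. Without cerebellar PCB52 female 16, Tac1 stood at 0.37. At an unadjusted p under 0.05 there were 2278 genes in this comparison, and DESeq2 passed 3, none a marker.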

How the data were processed

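Punches of striatum and cerebellum were sequenced, and the authors deposited whole-number read counts per gene, not normalized. Per the labels' protocols, RNA was extracted with TRIzol and spin columns, and libraries used poly(A) capture or ribosomal RNA removal. The submitters' processing notes name FastQC, HISAT2 and the genome build rn6. Counter, annotation and strand setting: not given in the sources used here. Of 47 labelled samples, 44 had a column of counts, and the others were not analysed here. Of 15319 gene identifiers, 15230 (99.4%) matched a symbol in the RefSeq table (GRCr8, names only).

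Counts were fitted per region, and over both regions for the region comparison, with edgeR 4.0.16 in R 4.3.3 (TMM, filterByExpr, robust quasi-likelihood F-test, Benjamini-Hochberg over all genes tested, threshold 0.05). DESeq2 1.42.0, limma 3.58.1 (voom with quality weights), other size factors, no filter and leaving out libraries were alternatives. The edgeR script was tested on simulated data. CPM divided counts by the library total, and log2 CPM used a prior count of 2. The members and lists were chosen with earlier results of these data known. Genes named from lists were up to 3 per list with the lowest p, and those named for females 14 and 24 were chosen after their values were seen. The animal numbers in the labels pair the regions: 21 animals gave both, and the correlation of their deviations ran from -0.45 to 0.57 (median 0.10, 11446 genes). A few genes of the lists and comparisons are not reported here.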

Additional observations from a re-analysis of the deposited data

Results flagged for a closer look

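A library far from the rest of its group was sought in 60 groups of marker values, and 4 were found, where chance gives about 1 in 20. In the striatum, Chrm4 in sham male 11 measured 136 CPM, against 106 to 110.1 in the other sham males. In the cerebellum, Tac1 in sham male 3 measured 4.97 CPM, and the next sham male measured 0.877. In cerebellar PCB52 female 16, Tac1 measured 9.46 CPM, and the next PCB52 female measured 1.53. In the same library Drd2 measured 9.57 CPM, and the next PCB52 female measured 3.30.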

How the results depend on the processing

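The number of markers past the threshold was the same as reported in each of the 376 refits of a comparison under an alternative: 0 in every PCB52 and sex comparison and in the region difference, and 9 in both region comparisons. Directions were less stable where differences were small. In striatal females 9 of 180 refitted marker values changed direction, all of them with PCB52 females 14 and 24 or the libraries high in another tissue's markers left out, and the lowest adjusted p was 0.157. In striatal males 31 of 162 changed direction. Leaving out 1 library at a time kept Gpr6 in females between -0.49 and -0.25 and Penk between -0.37 and -0.10. With animal as a replicate block, 9, 9 and 0 markers passed in sham, PCB52 and the region difference, among 8433, 9430 and 0 genes, so the pairing changed no call. No value was obtained for Tac1 in the cerebellum without PCB52 female 16. Depth limited Isl1 in the striatum and Pdyn, Chrm4, Isl1 and Gpr6 in the cerebellum.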
